A study of Mus musculus with 11 samples.

Results

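The genes described here are 10 enzymes that make, lengthen, desaturate and activate fatty acids: Acly, Acaca, Fasn, Scd1, Scd2, Fads1, Fads2, Elovl5, Elovl6 and Acsl3. They were chosen by name, with earlier results of these data known, and are 10 of the 37583 gene IDs in the count files. Each symbol was found under 1 ID, and all 10 were among the 11900 genes that passed the filter on low counts. Acly (ENSMUSG00000020917), Acaca and Fasn lie on chromosome 11, Scd1, Scd2 (ENSMUSG00000025203), Fads1 and Fads2 (ENSMUSG00000024665) on chromosome 19, Elovl5 on 9, Elovl6 on 3 and Acsl3 on 1.

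RNA was sequenced from 5 knockout (KO) clones lacking tafazzin, named 3H, 3I, 4J, 4K and 4L, and from 6 wild-type (WT) clones, named 1A to 1C and 2D to 2F. Values per clone are always listed in that order. Tafazzin, encoded by Taz, is a transacylase that sets the fatty acid chains of cardiolipin, a mitochondrial phospholipid, and is mutated in Barth syndrome. All 11 lines, of both genotypes, were granulocyte-monocyte progenitors (GMPs, the precursors of neutrophils and monocytes) from C57BL/6 fetal liver at embryonic day 15.5, and every line is a single-cell clone. All were held immature by a retrovirally delivered ER-Hoxb8 fusion, active in 0.5 uM estradiol, in medium with 10% serum and stem cell factor at about 50 ng/ml. Serum also supplies lipid to the cells. The number in each clone name is 1 or 2 in WT and 3 or 4 in KO clones; what it stands for is not stated in the labels. P-values here therefore reflect the spread among clones, which may include such a grouping.

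Fatty acid synthesis starts from citrate that leaves the mitochondrion. ATP citrate lyase (Acly) splits it into acetyl-CoA, acetyl-CoA carboxylase (Acaca) turns that into malonyl-CoA, and fatty acid synthase (Fasn) builds the saturated chain. Elongases (Elovl) lengthen chains in the endoplasmic reticulum, stearoyl-CoA desaturases (Scd) place the first double bond, Fads1 and Fads2 add further ones to polyunsaturated chains, and acyl-CoA synthetases such as Acsl3 couple fatty acids to coenzyme A. Many of these genes are known targets of the sterol regulatory element binding proteins (SREBPs), which also drive cholesterol synthesis genes.

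Promoter windows are shown for 2 of the genes that passed the test below, Acly and Fads2, and for Elovl5, whose fold change was nearest to 0, so that they can be compared with the motifs known from SREBP target genes. Each is the 250 bases before the gene's start, from RefSeq on GRCm38.p6, printed 5′ to 3′ on the gene's strand, with the letters CCAAT, or ATTGG on the other strand, in capitals. The window of Acly is chr11:100528001-100528250 on the minus strand, that of Fads2 chr19:10101504-10101753 on the minus strand, and that of Elovl5 chr9:77917115-77917364 on the plus strand.
Acly: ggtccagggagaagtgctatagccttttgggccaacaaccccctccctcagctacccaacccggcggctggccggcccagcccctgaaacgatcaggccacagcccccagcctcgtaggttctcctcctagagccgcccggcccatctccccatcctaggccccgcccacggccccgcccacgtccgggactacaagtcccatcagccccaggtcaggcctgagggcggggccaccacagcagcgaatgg
Fads2: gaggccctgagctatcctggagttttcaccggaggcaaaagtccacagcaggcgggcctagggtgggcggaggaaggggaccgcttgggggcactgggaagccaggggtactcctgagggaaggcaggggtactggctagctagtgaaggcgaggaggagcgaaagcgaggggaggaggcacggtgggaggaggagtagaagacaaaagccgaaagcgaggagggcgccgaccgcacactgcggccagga
Elovl5: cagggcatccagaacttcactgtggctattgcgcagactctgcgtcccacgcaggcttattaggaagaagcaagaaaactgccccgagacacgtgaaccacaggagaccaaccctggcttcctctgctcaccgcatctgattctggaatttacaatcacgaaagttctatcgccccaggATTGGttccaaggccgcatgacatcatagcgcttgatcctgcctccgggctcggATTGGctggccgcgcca
The table held windows for 7 of the 10 genes, all but Scd1, Scd2 and Fads1. The sterol regulatory element, searched on both strands as TCACNCCAC, was in 0 of the 7 windows, in 1 of 18 windows of cholesterol synthesis genes and in 346 of all 32851 windows of that length (1.05%). Its longer form, known from the LDL receptor gene, was also in 0 of 7, in 0 of the 18 and in 0.0731% of all windows. The CCAAT box, the motif of nuclear factor Y, was in 3 of 7 (Fasn, Elovl5 and Acsl3) and in 33.8% of all windows, while 14 of the 18 cholesterol genes had it. The E-box, CANNTG, was in 4 of 7 (Acaca, Fasn, Elovl5 and Acsl3) in 12 of the 18 cholesterol genes and in 66.2% of all windows; in Fasn it overlaps a CCAAT box. No capitals appear in the windows of Acly and Fads2, and Elovl5 has its CCAAT letters at 71 and 17 bases before the start. These are letter matches in short windows and show no binding. Of 25174 windows with a named gene, 76.4% were followed by letters found near the opening of a transcript of that gene. This was not looked at for each of the 7 windows. The window of Acaca had 39.2% G and C, the lowest of the 7, where the others had 55.6% to 75.6%. Whether it is a promoter used in these cells was not tested.

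The libraries held 19778119 to 23658158 gene counts in KO clones and 21966954 to 27431544 in WT clones. Levels are given as CPM, a gene's reads scaled to the size of its library, here with edgeR's TMM factors. Taz itself stood at 2.21 to 4.09 CPM in KO clones and 36.98 to 43.8 CPM in WT clones (log2 fold change -3.60 ± 0.14, SE), so every library matched its label. Which exons were deleted is not stated in the labels. A gene is called when edgeR's quasi-likelihood test gives an adjusted p under 0.05 over all 11900 genes. By that rule 2.29% of all tested genes were called lower and 2.76% higher in KO clones.

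As a group, the genes lay lower in KO clones. They were chosen with earlier results of these data known, so the shares below are descriptions and no independent test. Of the 10, 3 were called lower (Acly, Scd2 and Fads2), which is 30% against the 2.29% of all tested genes, and 0 were called higher, against 2.76%; at an unadjusted p under 0.05 the counts were 7 lower and 0 higher, where 20.3% of all tested genes passed that limit in either direction. The log2 fold change, KO over WT, was negative for 9 of the 10, with a median of -0.32, where 51.6% of all tested genes were negative with a median of -0.01. In 3 of the 10 (Acly, Scd2 and Acsl3) every KO clone lay below every WT clone, as it did in 3.02% of all tested genes. Added up, the 10 genes took 3104 to 3879 CPM in KO clones and 4263 to 4772 CPM in WT clones, so the sums did not overlap. The sums averaged 3589 CPM in KO and 4526 CPM in WT clones. Scd2 alone averaged 1211 and 1751 CPM and Acly 608 and 761 CPM, so the gap is mostly that of these genes. The count of 3 was 2 without any of 9 clones (every clone except WT 1A and WT 2D), 0, 1 and 0 when title number 1, 2 or 4 was left out, 5 with DESeq2 and 6 with the title number as a random block. The block added Fads1, Elovl6 and Acsl3. Its correlation within numbers was below 0 (-0.215), and all called genes rose from 601 to 1983, so the 6 is no stricter count. With counts summed per title number 3 genes were called (Scd2, Fads2 and Elovl6) and with title-number means 2 (Acly and Scd2). Without title number 1, 2 or 4 the median log2 fold change of the 10 was -0.344, -0.264 and -0.263, and calls over all genes also fell. In bulk RNA, fewer cells of a type and less RNA per cell cannot be told apart.

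**Figure D1:**
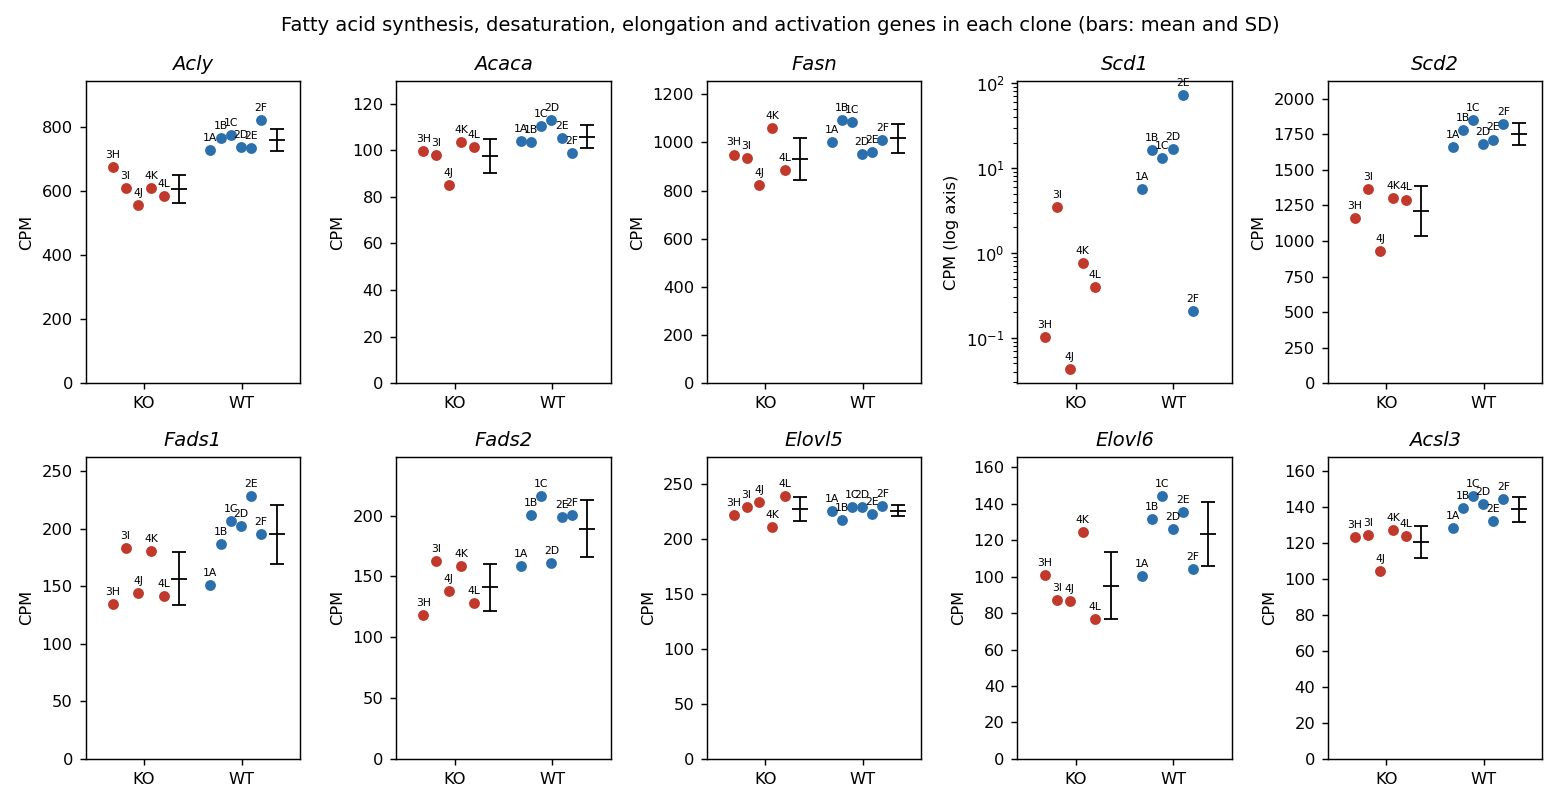
Level of each of the 10 genes in every clone, in CPM, with KO clones (red) left of WT clones (blue); black bars give the mean and SD, and the panel of Scd1 has a log axis and no bars. Acly, Scd2 and Acsl3 have no overlap between the genotypes, while Scd1 ranges from 0.0425 to 3.44 CPM in KO and from 0.207 to 73.1 CPM in WT clones.

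Of the 3 enzymes that lead from citrate to the saturated chain, the first differed and the other two did not pass the test. Acly stood at 676, 610, 558, 611 and 586 CPM in KO clones 3H to 4L, against 729, 767, 776, 737, 735 and 821 CPM in WT clones 1A to 2F. Every KO clone was below every WT clone, with KO 3H nearest to the WT range. Means were 608 ± 43.6 CPM in KO (SD, n = 5) and 761 ± 35.1 CPM in WT (SD, n = 6), or -0.32 ± 0.05 in log2 fold change (SE; adjusted p = 0.00687 by edgeR). The call held without any 1 clone (highest adjusted p = 0.0239) but ended when title number 1 (adjusted p = 0.102) or 4 (0.232) was left out and with counts summed per title number (0.0757).

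Acaca, whose product malonyl-CoA is the committed building block, stood at 99.6, 97.8, 85.1, 104 and 101 CPM in KO clones 3H to 4L, against 104, 104, 110, 113, 105 and 98.9 CPM in WT clones 1A to 2F. The groups overlapped, with KO 4J furthest under the WT range. Its log2 fold change was -0.12 ± 0.05 (SE; edgeR adjusted p = 0.248). Fasn, the synthase itself, stood at 950, 937, 824, 1060 and 886 CPM in the KO clones, against 1001, 1091, 1084, 951, 961 and 1009 CPM in the WT clones. Here too the groups overlapped, with KO 4K at 1060 CPM above 4 of the 6 WT clones. The log2 fold change of Fasn was -0.13 ± 0.06 (SE; adjusted p = 0.299), and neither gene passed the threshold under any of 27 other settings.

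Of the 2 stearoyl-CoA desaturases, Scd2 was called and Scd1 was not. Scd2, the more abundant one in these cells, stood at 1162, 1365, 930, 1303 and 1292 CPM in KO clones 3H to 4L, against 1659, 1783, 1848, 1679, 1714 and 1820 CPM in WT clones 1A to 2F. No KO clone reached the WT range, and KO 4J was lowest of all 11. The mean was 1211 ± 173 CPM in KO (SD, n = 5) and 1751 ± 77.9 CPM in WT (SD, n = 6), or -0.53 ± 0.09 in log2 fold change (SE; adjusted p = 0.00826 by edgeR). The call held without any 1 clone (highest adjusted p = 0.0269) and ended without title number 1 (adjusted p = 0.121), 2 (0.0604) or 4 (0.0862). The log2 fold change there was -0.52, -0.54 and -0.46, in that order, and calls over all genes also fell.

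Scd1 was low and spread over orders of magnitude within each genotype. It stood at 0.102, 3.44, 0.0425, 0.753 and 0.402 CPM in KO clones 3H to 4L, which is 2, 81, 1, 16 and 8 reads. In WT clones 1A to 2F it stood at 5.72, 16.2, 13.2, 16.6, 73.1 and 0.207 CPM, which is 149, 446, 290, 385, 1985 and 5 reads. The groups overlapped through WT 2F, which lay below KO 3I, 4K and 4L, while the other 5 WT clones were above every KO clone. The log2 fold change of -4.43 ± 1.32 (SE) was the largest of the 10 in size but did not pass the test (edgeR adjusted p = 0.0859). It was -5.99 without KO 3I, -3.44 without WT 2E and -4.69 without WT 2F (adjusted p = 0.0749, 0.131 and 0.0511), and it passed with DESeq2 (0.00392) and when a late neutrophil score was added as a covariate (0.0479).
Scd1 was a small share of the reads of the 2 desaturases together, between 0.00457% and 0.251% in KO clones and between 0.0114% and 4.09% in WT clones. WT 2F, lowest among WT clones for Scd1, had 1820 CPM of Scd2, the second highest level of that gene. Of 50-base windows along Scd1 transcripts 4.56% also occur in another gene's transcripts, Scd2, Scd3 and Scd4 among them, and how such reads were assigned was not tested.

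**Figure D2:**
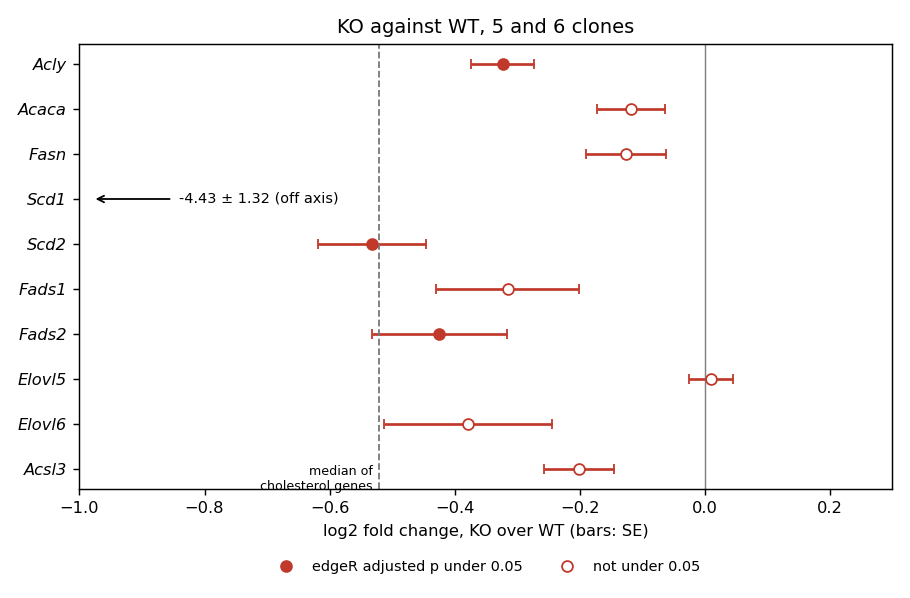
Log2 fold change of each of the 10 genes, KO over WT, with its SE, filled where the edgeR adjusted p was under 0.05; the dashed line is the median of the 19 cholesterol synthesis genes, -0.52. Scd2 lies at that line, Acaca and Fasn lie nearer to 0, Elovl5 lies at 0, and Scd1, at -4.43 ± 1.32, is off the axis.

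Of the 3 enzymes of polyunsaturated chains, 1 was called. Fads2, the desaturase that opens the pathway from linoleic acid, stood at 118, 163, 138, 158 and 128 CPM in KO clones 3H to 4L, against 159, 201, 216, 161, 199 and 201 CPM in WT clones 1A to 2F. KO 3I lay above WT 1A and 2D, and the other KO clones were below every WT clone. The mean was 141 ± 19.3 CPM in KO (SD, n = 5) and 189 ± 23.6 CPM in WT (SD, n = 6), or -0.42 ± 0.11 in log2 fold change (SE; adjusted p = 0.0485 by edgeR). The call was at the threshold and was lost when any clone other than WT 1A or WT 2D was left out (adjusted p up to 0.110). It was lost under 16 of 27 other settings in all. Over all 27 the adjusted p ran from 0.00333 to 0.376 and the log2 fold change from -0.51 to -0.37.

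Fads1, which acts after Fads2 and lies beside it on chromosome 19, stood at 135, 183, 144, 180 and 142 CPM in KO clones 3H to 4L, against 151, 187, 206, 202, 228 and 196 CPM in WT clones 1A to 2F. The groups overlapped through WT 1A, and KO 3I and 4K were the high KO clones, as for Fads2. Its difference was -0.32 ± 0.11 in log2 fold change (SE; adjusted p = 0.149 by edgeR). Elovl5, the elongase that works on chains between these desaturases, stood at 222, 229, 234, 211 and 239 CPM in the KO clones and at 225, 217, 229, 228, 222 and 230 CPM in the WT clones. It varied least of the 10, with the genotypes interleaved and a log2 fold change of 0.01 ± 0.04 (SE; adjusted p = 0.915). The sign of that value turned without WT 1B, KO 4J or KO 4L or without title number 1, where it lay between -0.01 and 0.00.

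Elovl6, the elongase that lengthens the saturated product of Fasn, stood at 101, 87.1, 86.8, 124 and 76.8 CPM in KO clones 3H to 4L, against 101, 131, 144, 126, 135 and 104 CPM in WT clones 1A to 2F. The groups overlapped: KO 4K and KO 3H lay within the WT range, KO 3H (100.8 CPM) only just above WT 1A (100.6 CPM). WT 2F was also near KO 3H. On the log2 scale its fold change was -0.38 ± 0.13 (SE; adjusted p = 0.140 by edgeR). Acsl3, an acyl-CoA synthetase of the endoplasmic reticulum and lipid droplets, stood at 124, 124, 105, 127 and 124 CPM in the KO clones, against 128, 140, 146, 142, 133 and 145 CPM in the WT clones. KO 4J stood apart at 105 CPM, and KO 4K at 127 CPM lay just below WT 1A at 128 CPM. Its log2 fold change of -0.20 ± 0.06 (SE) missed the threshold (adjusted p = 0.0636). Of the exon bases of Acsl3, 5.60% are shared with Utp14b on the same strand.

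Between genes, levels were compared per kilobase of merged exons, as mean CPM per kb. The order was the same in both genotypes: Scd2, Acly, Fasn, Elovl5, Fads2, Fads1, Acsl3, Elovl6, Acaca and Scd1. Scd2 led with 222 CPM per kb in KO and 320 CPM per kb in WT clones, followed by Acly with 115 and 144 CPM per kb in KO and WT clones. Scd1 came last with 0.194 CPM per kb in KO and 4.26 CPM per kb in WT clones. Neighbours whose clones overlapped were Fads2 with Fads1 and Fads1 with Acsl3 in KO clones, and Elovl5 with Fads2, Fads1 with Acsl3 and Acaca with Scd1 in WT clones. The place of Acaca depends on its merged exon length of 17074 bases, of which 30.4% of 50-base windows also occur in other genes' transcripts.

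Within a genotype, some clones were low or high in many of the 10 genes at once, and others were not. The share of all tested genes below the genotype mean in each clone was not computed. A shift of the whole clone and one of these genes can therefore not be told apart here. KO 4J was the lowest KO clone for 6 of them (Acly, Acaca, Fasn, Scd1, Scd2 and Acsl3) and was below the KO mean of log2 CPM in 9 of 10, with a median deviation of -0.15. KO 3I and KO 4K were below it in 1 gene each, with median deviations of 0.03 and 0.15. Among WT clones, 1A was below the WT mean in 9 of 10 genes (median deviation -0.09) and 1C in 0 of 10 (0.09). The remaining clones were mixed: KO 3H and 4L were below in 5 and 6 genes. WT 1B, 2D, 2E and 2F were below in 3, 4, 6 and 4 genes. Apart from Scd1, the highest KO clone exceeded the lowest by 1.13-fold (Elovl5) to 1.62-fold (Elovl6), and the highest WT clone the lowest by 1.06-fold (Elovl5) to 1.52-fold (Fads1). For Scd2 this ratio was 1.47 in KO and 1.11 in WT clones.

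**Figure D3:**
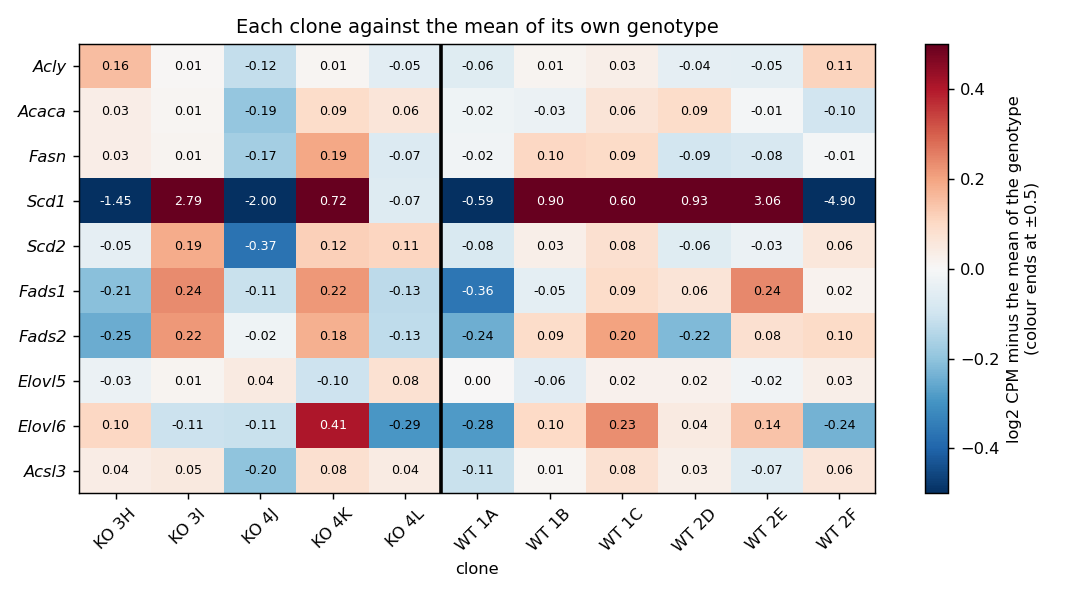
Log2 CPM of each gene in each clone minus the mean of that clone's own genotype, KO clones left of the line and WT clones right of it; the colour scale ends at 0.5 in either direction. KO 4J and WT 1A are mostly below the mean of their genotype, KO 4K and WT 1C mostly above, and Scd1 deviates by far more than the other 9 genes.

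The title numbers were compared within genotype, in 1 fit with 4 means. None of the 10 genes was called between KO clones of number 4 and number 3, where 0% of all tested genes were called in either direction, or between WT clones of number 2 and number 1, also 0%. At an unadjusted p under 0.05 by edgeR there were 161 genes (1.35% of all tested) in the KO and 372 (3.13%) in the WT contrast. The 10 genes had 0 in either, which at such shares says little about these genes, and limma-voom also called 0 in each. Acly averaged 585 CPM in KO number 4 and 643 CPM in KO number 3 (unadjusted p = 0.0846, the smallest of the 10 in that contrast), against 764 CPM in WT number 2 and 757 CPM in WT number 1. Scd2 averaged 1175 and 1264 CPM in KO numbers 4 and 3, against 1738 and 1763 CPM in WT numbers 2 and 1. Since the number is nested in the genotype, an effect of what it stands for and one of genotype cannot be told apart.

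Other genes of the pathway were mostly not called. Of 48 further genes of precursor supply, synthesis, elongation, desaturation, activation and uptake, 47 were found and 33 tested. Of these, 1 was called lower (3.03%, near the 2.29% of all tested genes) and 0 higher, 26 had a negative log2 fold change, and the median was -0.09; at an unadjusted p under 0.05, 8 were lower and 1 higher, beside 20.3% of all tested genes in either direction. The called gene was Slc25a1, the mitochondrial citrate carrier that supplies the substrate of Acly. It averaged 103 ± 3.92 CPM in KO (SD, n = 5) and 143 ± 12.3 CPM in WT (SD, n = 6), without overlap, or -0.47 ± 0.06 in log2 fold change (SE; adjusted p = 0.00231 by edgeR). The count of lower genes was 2 without KO 4K or WT 2F and 3 without WT 2D, and it was 0 without title number 1 or 4. By role, the median log2 fold change was -0.47 for 5 genes of precursor supply, of which Slc25a1 was called, -0.09 for 5 of synthesis, -0.02 for 8 of elongation, -0.18 for 6 of desaturation and -0.21 for 9 of activation and uptake. Slc27a2, a fatty acid transport protein with acyl-CoA synthetase activity, had the highest value, 1.61 ± 0.42 (SE; adjusted p = 0.0529), with 9.01 ± 3.13 CPM in KO (SD, n = 5) and 2.96 ± 1.47 CPM in WT (SD, n = 6). In 8 of 27 other settings 1 gene of this list was called higher, among them without KO 4K or WT 2E.

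Among 25 regulators, 21 were tested. Of these, 1 was called lower (4.76%) and 0 higher, beside 2.29% and 2.76% of all tested genes, so the count says little about the list. A negative log2 fold change was seen in 11 of the 21, beside 51.6% of all tested genes, and the median was 0.00. At an unadjusted p under 0.05 by edgeR, 4 were lower and 3 higher, beside the same 20.3% of all tested genes. The called gene was Srebf2, which encodes SREBP2, the member of the family best known for cholesterol genes. It averaged 342 ± 19.0 CPM in KO (SD, n = 5) and 396 ± 27.4 CPM in WT (SD, n = 6), with overlap, or -0.21 ± 0.05 in log2 fold change (SE; adjusted p = 0.04996 by edgeR). This call was at the threshold and ended under 21 of 27 other settings, including the omission of any clone other than WT 1A or WT 2D (adjusted p up to 0.113); without WT 2D, 2 regulators were called lower. Srebf1, whose product SREBP1 is best known for fatty acid genes, had -0.18 ± 0.07 (SE; adjusted p = 0.189). Insig1, which retains SREBPs in the endoplasmic reticulum and is itself an SREBP target, had -0.44 ± 0.13 (SE; adjusted p = 0.0851).

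The cholesterol synthesis genes, the pathway most like this one in its known regulation, lay further down. Of 19 tested, 17 were called lower (89.5%) and 0 higher, beside 2.29% and 2.76% of all tested genes. All 19 had a negative log2 fold change, beside 51.6% of all tested genes, and the median was -0.52. For the fatty acid genes, 3 of 10 were called lower, 9 of 10 were negative and the median was -0.32. The difference between the lists was not tested. Those with small adjusted p included Mvd, Nsdhl, Lss, Acat2, Dhcr7, Fdps and Sqle, with log2 fold changes from -0.89 to -0.38. In 18 of the 19, every KO clone lay below every WT clone, as it did in 3.02% of all tested genes. With title number 1, 3 or 4 left out, the count of lower genes was 4, 8 or 3, and calls over all genes also fell.

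The genes whose log2 CPM over the 11 clones was most like that of Scd1 were sought among 11580 tested genes with a symbol. The pooled correlations below include the difference between genotypes, which the 11 points share, and are descriptions. The highest Pearson r was that of 4933440M02Rik, a long noncoding RNA on chromosome 7 (r = 0.94, Spearman's rho = 0.91). It stood at 0, 2.55, 0.0425, 0.894 and 0.100 CPM in KO clones 3H to 4L, against 28.7, 23.5, 20.4, 51.6, 26.2 and 0.415 CPM in WT clones 1A to 2F. As for Scd1, WT 2F was the low WT clone and KO 3I the high KO clone. Without the 2 clones farthest from the median of Scd1, WT 2E and KO 4J, r was 0.96 over 9 clones, and without WT 2F, a check added after the values were seen, it was 0.94 over 10. Within the 6 WT clones r was 0.88 and rested on WT 2F, since over the other 5 it was -0.04. Within the 5 KO clones r was 0.94, at low levels of both genes. The next were Eif2ak2 (r = 0.88), Fbxo22 (0.88), Chmp2b (0.87) and Snx1 (0.86) with log2 fold changes from -0.22 to -0.07.

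**Figure D4:**
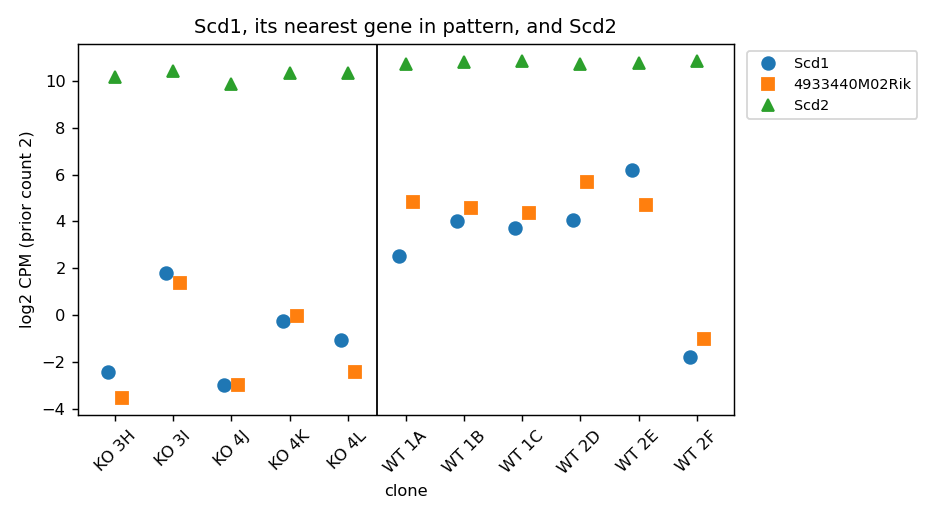
Log2 CPM (prior count 2) of Scd1, of 4933440M02Rik and of Scd2 in each clone, KO clones left of the line and WT clones right of it. Scd1 and 4933440M02Rik are both low in WT 2F, where Scd2 is not, and both are highest among KO clones in KO 3I.

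For the other 9 genes, each centred and scaled over the clones and averaged, the most like were Plekhg2 (r = 0.94), Lss (0.94), Slc6a6 (0.93), Idi1 (0.93) and Slc35e3 (0.92). Lss and Idi1 are enzymes of cholesterol synthesis and Slc6a6 is the taurine transporter. Within the 6 WT clones r was lower for Plekhg2 (0.49), Lss (0.59), Slc6a6 (0.15) and Idi1 (0.68) and was 0.94 for Slc35e3. Within the 5 KO clones r was 0.97 for Plekhg2, 0.85 for Lss, 0.97 for Slc6a6, 0.77 for Idi1 and 0.88 for Slc35e3. Lss averaged 59.96 ± 5.42 CPM in KO (SD, n = 5) and 94.4 ± 5.50 CPM in WT (SD, n = 6).

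Markers of other cell types that use this pathway heavily were near 0. The 7 hepatocyte markers summed to 0.803 to 3.31 CPM in KO and 0.907 to 1.65 CPM in WT clones, with Ttr, Serpina1a and Fgb at 0 in every clone. The 5 adipocyte markers summed to 0.382 to 0.803 CPM in KO and 0.255 to 1.36 CPM in WT clones, with Plin1 and Lep at 0. The 10 GMP markers were all tested and 0 were called, with summed levels of 11840 to 19920 CPM in KO and 12680 to 22290 CPM in WT clones. Of the 10, 7 had a negative log2 fold change, with a median of -0.08 and a range from -2.03 (Elane) to 0.26 (Fcgr3). Elane ran from 2.26 to 147 CPM in KO and from 23.3 to 825 CPM in WT clones. With such spread, 0 calls do not show equal levels. Of 11 late neutrophil markers 7 were tested and 0 called, and the 11 summed to 15.95 to 146 CPM in KO and 22.1 to 1546 CPM in WT clones, the highest being WT 2D. Of the 7, 6 had a negative log2 fold change, with a median of -3.30. At an unadjusted p under 0.05 by edgeR 2 were lower and 0 higher, beside 20.3% of all tested genes in either direction. Without WT 2D the same 3 genes, Acly, Scd2 and Fads2, were called lower, and adding the late neutrophil score as a covariate called Scd1 as well. The 6 B-lymphoid markers summed to 5.02 to 27.9 CPM in KO and 30.9 to 50.6 CPM in WT clones, without overlap. Most of that sum was Ebf1, at 3.56 to 26.6 CPM in KO and 22.9 to 42.15 CPM in WT clones. Ebf1 overlapped between genotypes and was not called (edgeR adjusted p = 0.260). Of 4 tested, 4 had a negative log2 fold change and 1, Cd79b, was called lower (25%, beside 2.29% of all tested genes). Pax5 was at 0 in every clone. The part of these markers in the results was not tested. Summed macrophage (29.4 to 62.6 CPM in KO, 20.4 to 56.1 in WT), mast cell and basophil (2760 to 5554 in KO, 1598 to 4761 in WT), erythroid (3.44 to 10.2 in KO, 4.15 to 34.1 in WT) and stromal markers (87.8 to 136 in KO, 63.2 to 141 in WT) overlapped between genotypes.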

How the data were processed

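PolyA-selected, strand-specific libraries were made for each clone, per the labels' protocols. The deposited files hold whole-number counts of reads per Ensembl gene ID, made without regard to strand per the deposited files' names; reads from an antisense partner would be included. Per the submitters' processing notes the tools were STAR, HTSeq and edgeR and the build mm9; they name no version, setting or annotation release.

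From these counts, the last lines of each file (the counter's totals) were left out. Symbols, merged exon lengths and chromosomes came from an annotation of another mouse build (GENCODE on GRCm38), which named 32860 of 37583 IDs (87.4%), holding 99.6% of counts; no gene coordinates were carried over. Hmgcs1 and Hsd17b8 had no match. Promoter windows came from RefSeq on GRCm38.p6.

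edgeR 4.0.16 in R 4.3.3 fitted all 11 clones at once (TMM, filterByExpr, robust quasi-likelihood fit and test, Benjamini-Hochberg over 11900 genes, adjusted p under 0.05); the SE is the log2 fold change divided by the square root of its F statistic. Log2 CPM used a prior count of 2. Alternatives included DESeq2 1.42.0 and limma 3.58.1 and are given in the closing section. Fits were tested on simulated counts. Clones of 1 genotype always differed by more than counting noise (chi-square per gene of at least 14.96).

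The members and lists were chosen with earlier results of these data known. Named are all 10 members; of each other list, the called genes up to 8 by smallest adjusted p, of which 1 is not reported here; and the 5 genes most like Scd1 and the 5 most like the mean of the other members. Slc27a2, Srebf1 and Insig1 were chosen after their values were seen.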

Additional observations from a re-analysis of the deposited data

Results flagged for a closer look

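The level of Acsl3 in KO 4J stood apart from the other 4 KO clones. It was 105 CPM in KO 4J and 124 to 127 CPM in KO 3H, 3I, 4K and 4L, and the gap to the nearest clone was 0.849 of the whole range of log2 CPM, above Dixon's 95% critical value of 0.71 for 5 samples. Chance flags about 1 in 20 groups, and 22 groups were looked at (the 10 genes and Taz in both genotypes). Without KO 4J the log2 fold change of Acsl3 was -0.15 (edgeR adjusted p = 0.0831).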

How the results depend on the processing

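27 alternatives were run. The 10 fatty acid genes called lower, 3 in the fit reported, numbered 5 with DESeq2, 6 with the title number as a random block in limma-voom, 0 with the exact permutation test, 0, 1 and 0 without title number 1, 2 or 4, and 2 to 3 with 1 clone left out, Acly and Scd2 among them every time. The permutation test allows no p under 0.00216, and 2461 genes had an unadjusted p under 0.05 by it. Its smallest adjusted p in these data was 0.0633, which depends on how many genes share that smallest p. It therefore called no gene here whatever the effect size, and Taz kept a value of -3.59 there. Of other fatty acid genes, 1 lower became 4 with DESeq2, 6 with the block, 2 with counts summed per title number, 2 with the late neutrophil score, 0 with permutation or without title number 1 or 4, and 1 to 3 with 1 clone left out; 0 higher became 1 with the stricter filter, DESeq2, limma-voom, the block, summed counts and the score, and 0 to 1 with 1 clone left out. Of regulators, 1 lower became 0 with RLE or upper-quartile scaling, either filter, limma-voom, permutation, summed counts, title-number means or without any title number, 2 with DESeq2, 3 with the block or the score, and 0 to 2 with 1 clone left out, and 0 higher became 1 with the block. Of cholesterol genes, 17 lower became 0 with permutation, 11 with summed counts, and 4, 8 and 3 without title number 1, 3 or 4. All called genes, 601, numbered 329 without a filter, 1268 with DESeq2, 1983 with the block, 942 with the score, 197 with summed counts, 307 with title-number means, 0 with permutation, 45, 296, 92 and 32 without title number 1, 2, 3 or 4, and 240 to 739 with 1 clone left out. The causes were not tested. Elovl5 turned to -0.00147 without title number 1 and ranged from -0.00991 to 0.0348 with 1 clone left out; the log2 fold changes of the other 9 genes, Slc25a1, Srebf2, Taz and the 10 genes chosen for likeness kept their sign in all alternatives run, and those of the other genes named were not rerun. The within-genotype title-number contrasts called 0 of the 10 genes in every alternative run. No paired analysis was possible because the genotypes share no replicate number. The block is the title number, nested in genotype, with a correlation of -0.215 within numbers. A correlation below 0 makes that fit less strict for the difference between genotypes than the fit without the block. Depth limits mainly Scd1, with 1 to 81 reads in KO clones.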
